A study of Mus musculus with 2 samples.

Results

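The miR-135 family was followed in the midbrain of newborn mice through its 3 hairpin genes, Mir135b, Mir135a-1 and Mir135a-2, which are 3 of the 1973 microRNA genes counted. They were taken by symbol, after the gene identifiers were matched to the GENCODE M21 annotation, and no measured value is part of that rule. The choice was still made with earlier results of these data known. The microRNA-seq series has 1 group of 2 libraries, each from the total RNA of a single whole midbrain of a B6NCrl pup on postnatal day 0, pup 3 and pup 1. No treatment or mutation is named, sex was not collected, and both pups carry the same donor identifier, so differences between them measure only the spread between these samples. All levels are CPM, counts on the gene's own strand per 1000000 such counts on all genes, and means are over n = 2 pups with the SD. In bulk tissue, fewer cells of a type and less RNA per cell cannot be told apart, and no value here says which midbrain cells made the family.

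MicroRNAs are cut from hairpin precursors, and the seed, bases 2 to 8 of the mature strand, pairs with messenger RNAs and represses them. miR-135 is known from the developing mouse midbrain, where the copy in the long noncoding RNA Rmst was studied in a circuit with Lmx1b, a homeodomain factor of dopaminergic progenitors, and with Wnt signalling, which sets how many such progenitors form. In the adult mouse raphe it was studied as a repressor of serotonin transporter and receptor genes. The progenitors divide before birth, so newborn tissue is later than that stage.

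The sequences below are from RefSeq on GRCm38.p6, in which all 3 hairpins were found. They are shown because the way they resemble each other determines to which gene a read can be assigned. Capitals mark the seed of each listed mature strand. A single 5p sequence, miR-135a-5p, is listed for both Mir135a-1 and Mir135a-2, while each hairpin has a 3p sequence of its own. The sequences used here have no entry for a 5p strand of Mir135b, so none is printed. That gap does not mean that Mir135b makes no 5p strand.
miR-135a-5p: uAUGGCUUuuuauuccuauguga
miR-135a-1-3p: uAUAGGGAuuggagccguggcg
miR-135a-2-3p: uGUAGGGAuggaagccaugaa
miR-135b-3p: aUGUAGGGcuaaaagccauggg

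The 3p strands have 3 different seeds. Each listed 3p strand has 5 to 8 mismatches at its best ungapped place in either of the other hairpins. The whole hairpins follow, with capitals where each holds the 7 seed letters of miR-135a-5p.
Mir135b: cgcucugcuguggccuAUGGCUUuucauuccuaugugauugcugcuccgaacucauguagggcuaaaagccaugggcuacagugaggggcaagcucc
Mir135a-2: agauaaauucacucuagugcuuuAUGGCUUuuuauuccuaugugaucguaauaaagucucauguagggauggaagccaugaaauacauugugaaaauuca
Mir135a-1: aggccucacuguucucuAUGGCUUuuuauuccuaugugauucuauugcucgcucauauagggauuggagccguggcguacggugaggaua

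The 3 hairpins hold the seed letters once each. Mir135a-1 and Mir135a-2 share an unbroken run of 24 bases, which contains all 23 bases of miR-135a-5p. The longest run of Mir135b with them is 14 bases for Mir135a-1 and 13 bases for Mir135a-2. Set without gaps on the Mir135b hairpin, miR-135a-5p differs by the single substitution U11C, counted from 1 at the 5′ end of the mature strand, so the seed is the same and the middle of the strand is not. Over their full length the hairpins are 62.9% to 67.0% identical. Among the 1005 hairpins of the table, 2 hold miR-135a-5p in full.

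**Figure D1:**
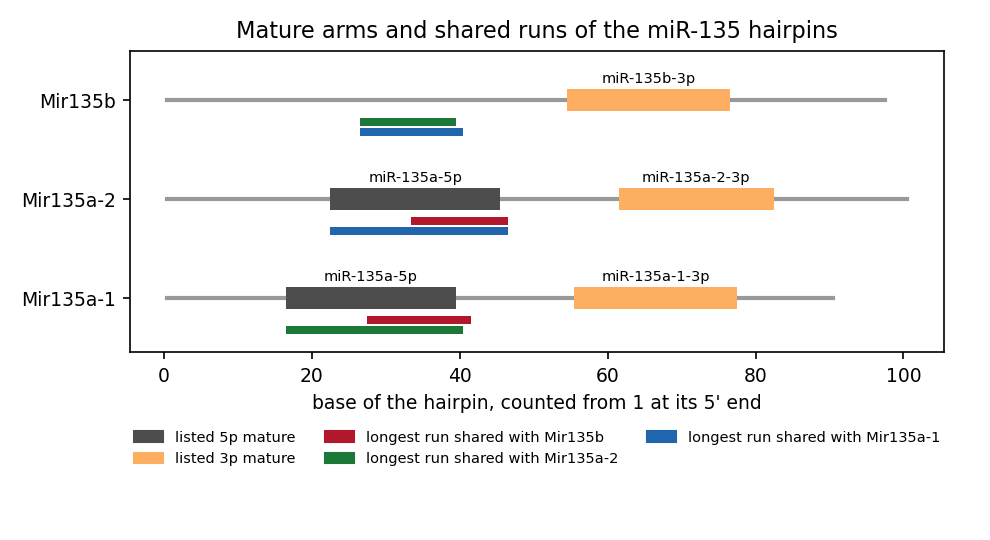
Map of the 3 hairpins, with the base of the hairpin counted from its 5′ end on the x axis and 1 hairpin per row. Boxes are the mature strands listed in the sequence table, and thin bars are the longest runs shared with each other hairpin. The 24-base run between the Mir135a copies covers the whole of miR-135a-5p, while the runs shared with Mir135b are 13 or 14 bases long.

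The hairpins lie on 3 chromosomes of GRCm38, the assembly also called mm10. Mir135b (ENSMUSG00000065435.1) lies at chr1:132198088-132198184 on the plus strand, in an intron of Lemd1 and of the overlapping protein-coding gene AC124108.1. Mir135a-2 (ENSMUSG00000065524.1) lies at chr10:92072086-92072185 on the minus strand, in an intron of Rmst. Mir135a-1 (ENSMUSG00000065407.1) lies at chr9:106154124-106154213 on the plus strand. It is in an intron of the noncoding gene D030055H07Rik and, on the other strand, overlaps an exon of Glyctk, which encodes glycerate kinase. No read was counted opposite any of the 3 hairpins in either pup.

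The libraries held 3195277 own-strand counts on genes in pup 3 and 2337113 in pup 1, and 359 genes passed the limit for detection, 10 counts or more in both. A further 2937457 reads of pup 3 and 2111487 of pup 1 mapped to several places and enter no gene. Of the neural microRNAs, 7 of 10 counted were detected, with 49080 CPM in all in pup 3 and 44080 CPM in pup 1, led by Mir137. Of the striated muscle microRNAs, 1 of 4 was detected, Mir206, with 19.7 CPM in each pup, and 3 were at 0. Those 3 are hairpins of duplicated microRNAs, whose reads can match several places and then enter no gene, so their zeros set no limit on muscle RNA, and the same loss bears on the low neural hairpins of miR-9 and miR-124. All 3 oligodendrocyte microRNAs were detected, with 1549 CPM in all in pup 3 and 1656 CPM in pup 1. The 3 erythroid ones held 74.2 CPM in pup 3 and 124.5 CPM in pup 1, but they did not all go the same way. Mir451a was lower in pup 3, at 31.0 CPM against 86.4 CPM in pup 1, as was Mir486, at 14.1 against 18.0 CPM. Mir144 was higher in pup 3, at 29.1 CPM against 20.1 CPM in pup 1. In the comparison of the pups below, Mir451a was called lower in pup 3 (log2 ratio -1.52, adjusted p = 2.4e-18 by edgeR's binomial test). Mir144 and Mir486 were not called. What part such differences have in the ratios of other microRNAs between the pups was not tested. The liver microRNA Mir122 held 53.3 ± 7.59 CPM and the endothelial Mir126a 33142 ± 4309 CPM.

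Mir135b was an abundant microRNA of the newborn midbrain. It had 43810 counts in pup 3 and 31429 in pup 1, which is 13711 CPM (exact 95% Poisson interval 13583 to 13840) and 13448 CPM (13299 to 13597). The pups differed by little, with a mean of 13579 ± 186 CPM, a coefficient of variation of 1.37%. PCR reads are not independent molecules, so intervals cover counting error only. Mir135b ranked 15th of all genes in each pup, and 344 of the 359 detected genes were below it. The rank is by counts assigned to a gene. Reads mapping to several places, 39.8% of all reads in pup 3 and 38.7% in pup 1, are not in it. Hairpins with copies may therefore stand too low beside Mir135b, and the rank is not one among mature microRNAs.

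Mir135a-2, the copy inside Rmst, had 1176 counts in pup 3 and 910 in pup 1. That is 368 CPM (347 to 390) and 389 CPM (364 to 416), with a mean of 379 ± 15.1 CPM and rank 157. It lies in the middle of the detected genes, whose median was 225 CPM. Mir135a-1 had 973 counts in pup 3 and 841 in pup 1, which is 305 CPM (286 to 324) and 360 CPM (336 to 385). Its mean was 332 ± 39.1 CPM and its rank 164. The ranges of the Mir135a copies over the pups did not overlap, Mir135a-2 being the higher in both.

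**Figure D2:**
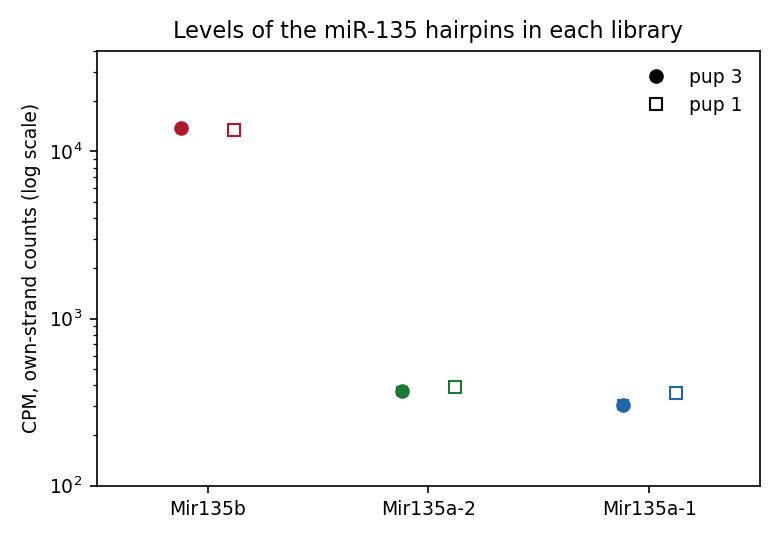
Level of each hairpin in each library, in CPM on a log scale, with filled circles for pup 3 and open squares for pup 1. Bars are exact 95% Poisson intervals and are mostly smaller than the symbols. Mir135b stands at 13711 and 13448 CPM, and the Mir135a copies between 305 and 389 CPM.

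Within the family, Mir135b held 95.3% of the counts in pup 3 (exact Clopper-Pearson 95% interval 95.1% to 95.5%) and 94.7% in pup 1 (94.48% to 94.96%). Mir135a-2 held 2.56% in pup 3 and 2.74% in pup 1, and Mir135a-1 held 2.12% and 2.53%. The family as a whole took 1.43% ± 0.0132 of all counts on genes. Mir135b had 45.0 times the counts of Mir135a-1 in pup 3 (42.3 to 48.0) and 37.4 times in pup 1 (34.9 to 40.1). Against Mir135a-2 it had 37.3 times in pup 3 (35.2 to 39.5) and 34.5 times in pup 1 (32.3 to 36.9). Per base of hairpin these ratios were 34.7 to 41.8, since the hairpins are 97, 90 and 100 bases long.

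The order of the Mir135a copies was less firm. Mir135a-2 had 1.21 times the counts of Mir135a-1 in pup 3 (1.11 to 1.32), but in pup 1 the ratio was 1.08 with an interval that includes equality (0.984 to 1.19). Per base of hairpin the ratios were 1.09 in pup 3 and 0.974 in pup 1. The turn of order on that scale comes from dividing by hairpin length, and by counts Mir135a-2 was higher in both pups. Whether counts follow hairpin length was not tested.

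These ratios compare hairpin genes and not mature microRNAs. A read of the full miR-135a-5p matches both Mir135a loci, and a read with more than 1 match was given to no gene, so the counts of Mir135a-1 and Mir135a-2 miss such reads. The files give no number for them. The reads mapping to several places were 63.9 times the counts of the family in pup 3 and 63.6 times in pup 1, and they come from all such sequences together. The tables also do not separate the 5p and 3p strands of a hairpin. The true ratio of miR-135a to miR-135b is therefore unknown from these counts, and the levels of the Mir135a copies are uncertain.

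Other hairpins with a shared mature strand were looked at in the same way, as far as the table lists mature strands. Of 858 counted hairpins with both a listed hairpin and a listed mature sequence, 83 share a mature strand with another hairpin. Of these, 43 were detected. Mir135a-2 was the 19th and Mir135a-1 the 22nd of the 43, so their median, 332 CPM, is the level of Mir135a-1 itself. The set is incomplete and its ranks are approximate. Mir125b-2, which shares a mature strand and held 2570 CPM, is not among the 43. The highest of them, Mir128-1, held 7698 CPM, below Mir135b. Of the 775 hairpins that share none, 266 were detected, with a median of 225 CPM and a maximum of 162874 CPM.

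A number of families are built like miR-135, with duplicated hairpins that share a mature strand and paralogs with one of their own. In 9 such families with counts in both pups, the paralogs held a median of 81.4% of the family's counts, lower than the 95.3% in pup 3 and 94.7% in pup 1 that Mir135b held within miR-135. By mean over the pups, 4 families lay above Mir135b and 5 below it. In the miR-26 family, Mir26b stood at 51752 counts in pup 3 and 31745 in pup 1, against 159 and 106 for the Mir26a copies together. In the miR-103 family, Mir107 held 98.2% ± 0.0699. At the other end, Mir195a, the only paralog listed for miR-16, held 23.7% ± 0.961 of the counts it shared with the duplicated Mir16-1 and Mir16-2. Between these lay Mir125a with 60.8% ± 1.95 and Mir7b with 77.6% ± 0.427 of their families. A further family, miR-133 of striated muscle, had 1 count in pup 3 and 0 in pup 1. These shares are subject to the same loss of reads that map to several places and were not tested. They also depend on which paralogs were listed. Mir15a, with 10243 counts in pup 3 and 7479 in pup 1, and Mir15b, with 4379 and 2829, were not listed with miR-16. Nor were Mir25, Mir32 and Mir363 listed with miR-92.

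**Figure D3:**
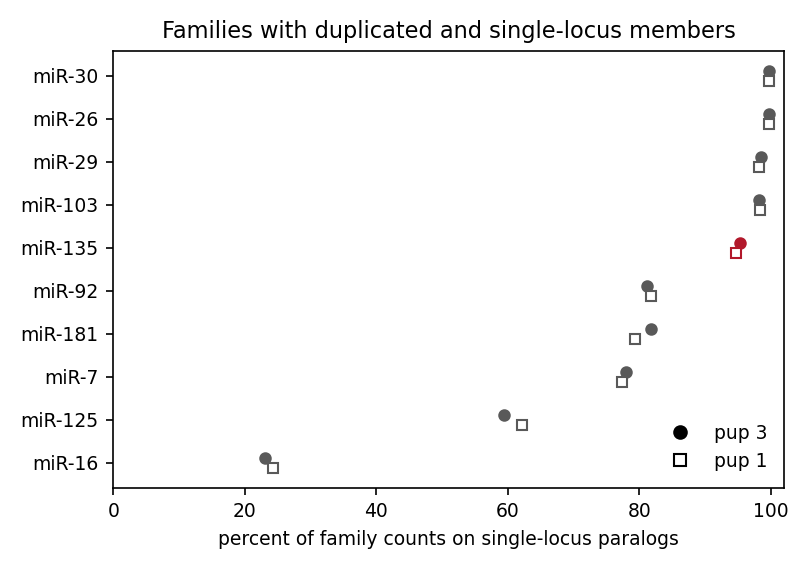
Percent of the own-strand counts of each family, as listed here, held by paralogs with a mature strand of their own. Filled circles are pup 3 and open squares pup 1. The miR-135 family, in red, stands at 95.3% and 94.7%, below miR-103, miR-29, miR-26 and miR-30 and above miR-92, miR-181, miR-7, miR-125 and miR-16.

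The pups were compared after TMM scaling, which adjusts for differences in composition between libraries, with an exact two-sided binomial test in edgeR and Benjamini-Hochberg adjustment over the 372 genes whose mean count reached 10. The test compares these 2 libraries and has no replicate check. With an adjusted p under 0.05 and at least a 2-fold ratio, 10 genes were called, 2.69% of those tested, and no member of the family was among them. At any fold 166 genes, 44.6%, had an adjusted p under 0.05, and 1 of the 3 members did.

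That member was Mir135a-1, with 299 CPM in pup 3 and 366 CPM in pup 1 on the TMM scale. Its ratio of pup 3 to pup 1 was 0.818 (95% counting interval 0.745 to 0.898), a log2 ratio of -0.29, with an adjusted p of 7.5e-05 by edgeR's binomial test. That p covers counting error between 2 libraries and takes reads as independent, so it does not set the ratio apart from ordinary spread between pups. In size, its absolute log2 ratio stood at percentile 66.9 of all tested genes. Mir135a-2 had a log2 ratio of -0.13 (0.837 to 0.997-fold, adjusted p = 0.086 by the same test). Mir135b had a log2 ratio of -0.02 (0.971 to 1.00-fold, adjusted p = 0.096 by the same test). On plain library totals the log2 ratio of Mir135b was instead 0.03 with an adjusted p of 0.020, so no direction is given for it. The median absolute log2 ratio over all tested genes was 0.17, and edgeR put the common coefficient of variation in excess of counting noise at 0.184. The 3 members lay among the 327 of 372 tested genes whose ratio was within 1.5-fold.

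**Figure D4:**
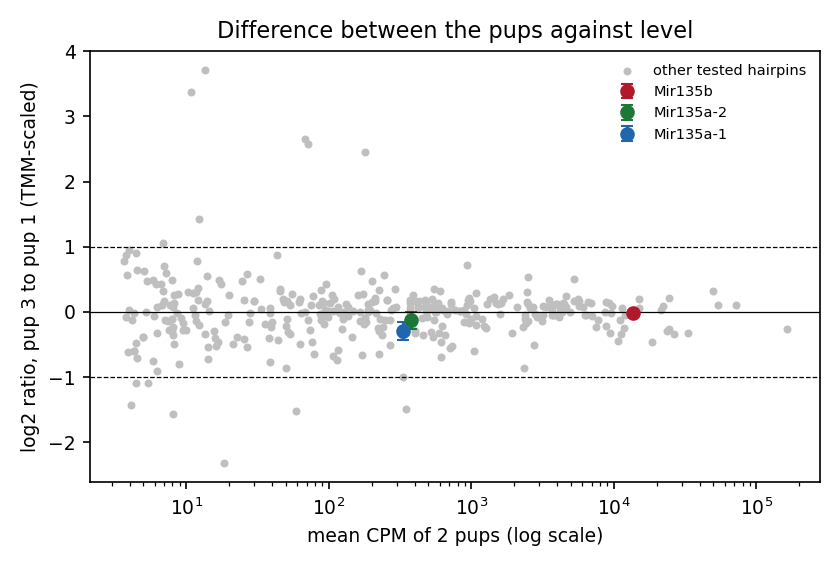
TMM-scaled log2 ratio of pup 3 to pup 1 against mean CPM on a log scale, for 372 tested hairpins. Bars on the miR-135 hairpins are 95% counting intervals and dashed lines mark 2-fold. Mir135b sits at -0.02, Mir135a-2 at -0.13 and Mir135a-1 at -0.29, all within the dashed lines.

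By mean CPM over the 2 libraries, the genes nearest to Mir135b were Mir181c at 14955 ± 813 and Mir26b at 14890 ± 1848 CPM above it, and Mir127 at 11949 ± 1.38 and Mir22 at 11707 ± 1117 CPM below it. Of these, Mir26b overlapped Mir135b in its range over the pups. Next to Mir135a-2 were Mir496a and Mir329 above, at 388 and 382 CPM, and Mir500 and Mirlet7a-1 below, at 373 and 370 CPM. Next to Mir135a-1 were Mir331 and Mir181a-2 above, at 351 and 350 CPM, and Mir346 and Mir668 below, at 331 and 326 CPM. The ranges of all 8 neighbours overlapped those of the Mir135a copies. Likeness here is level alone.

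Neighbours on the chromosome had other levels than the member they lie near. Mir1251 lies in an intron of Rmst on the same strand as Mir135a-2, 65.0 kb from it, at chr10:92137140-92137223. It reached 697 CPM in pup 3 and 664 CPM in pup 1, above Mir135a-2 in both. The counts of Mir135a-2 miss reads that match both Mir135a copies, so this order is one of assigned counts only. Mirlet7g, a let-7 gene, lies 24.6 kb from Mir135a-1 in an intron of Wdr82 and held 71710 ± 5418 CPM. No other counted microRNA lies in the host genes of Mir135b or within 50 kb of it.

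Other microRNAs linked to midbrain dopaminergic neurons were set beside the family. Of 9, 8 were detected, at 29.7 to 5252 CPM, all below Mir135b. Mir7b, known to repress alpha-synuclein, stood at 6242 CPM in pup 3 and at 4261 CPM in pup 1. Mir132, induced by neuronal activity, had 2333 and 2424 CPM, and Mir34c 1052 and 907 CPM. Mir218-2, of a family enriched in motor neurons, had 70.1 and 73.6 CPM, and Mir133b 1 count in pup 3 and 0 in pup 1. In the comparison of the pups 3 of the 8 had an adjusted p under 0.05 and were higher in pup 3, as 23.4% of all tested genes did, and 1 of the 8 was lower, as 21.2% did, and none reached 2-fold. Their median log2 ratio was 0.17, against 0.01 over all tested genes. The Mir7, Mir133b and Mir218 hairpins too have near copies, so their levels are uncertain.

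Messenger RNAs were not measured, but the seed of miR-135a-5p can be read against their annotated 3′ UTRs. The 7 letters facing the seed, AAGCCAT, were searched on the sense strand of the longest annotated 3′ UTR of each protein-coding gene in GENCODE M21. The longer match AAGCCATA, which contains it, is counted within it. Of 20984 genes with a 3′ UTR, 13.0% hold AAGCCAT and 2.99% hold AAGCCATA. A match is only a run of letters.

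Of 25 genes of Wnt signalling, 7 hold AAGCCAT (28.0%), with a median 3′ UTR of 1634 bases, against 962 bases over all genes. They are Wnt5a, a ligand, Rspo2, a secreted agonist, Fzd3, a receptor, Dvl2, which relays the signal, Gsk3b and Csnk1a1, kinases that mark beta-catenin for destruction, and Tcf7l2, a transcription factor that works with beta-catenin. Of 20 genes of midbrain dopaminergic cells 1 holds it, Slc18a2, which encodes the vesicular monoamine transporter (5.00%, median 1162 bases). Of 7 serotonin genes 2 hold it, the receptor gene Htr1a and Gata3, a transcription factor (28.6%, median 1292 bases). Lmx1b has no AAGCCAT in its 3671-base 3′ UTR, where 31.5% of 3′ UTRs within 20% of that length have one. Wnt1 and the serotonin transporter gene Slc6a4 have none either, in 933 and 663 bases, where the shares are only 9.30% and 5.67%. Other kinds of match were not searched, so a gene without AAGCCAT is not shown to be no target.

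The matches with the longer motif in the Wnt list, and those of Slc18a2 and Htr1a, are shown for comparison with the seed above. Capitals mark AAGCCAT, and coordinates of the capitals are on GRCm38.
Gsk3b, chr16:38243460-38243466, plus strand: cgagctttttaAAGCCATatagttt
Rspo2, chr15:43020988-43020994, minus strand: tgatgcaagatAAGCCATatatgaa
Dvl2, chr11:70012145-70012151, plus strand: aactgtgaagaAAGCCATagggctc
Slc18a2, chr19:59295448-59295454, plus strand: ttcccactcttAAGCCATtggacag
Htr1a, chr13:105447399-105447405, plus strand: cctgccacatgAAGCCATtgttttt

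Gsk3b holds 1 match in 5515 bases, and 44.6% of 3′ UTRs of similar length hold at least 1. Rspo2 holds 1 in 1733 bases, where the share is 15.6%, and Dvl2 holds 2 in 2610 bases, where it is 22.6%. The Dvl2 matches start at bases 2070 and 2454 of that longest 3′ UTR, and shorter ones were not searched. The Mir324 hairpin, at chr11:70012043-70012131, lies between them. Among the other Wnt genes with a match, Fzd3 holds 1 in 10270 bases, where the share is 65.2%. Wnt5a holds 1 in 4508 bases, where it is 37.3%. Csnk1a1 holds 1 in 2628 bases and Tcf7l2 holds 2 in 2239 bases, with shares of 22.7% and 19.7%. For Slc18a2 and Htr1a the shares are 18.5% and 22.6%. Since the lists differ from all genes in 3′ UTR length, the counts of 7 of 25, 1 of 20 and 2 of 7 were not tested.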

How the data were processed

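MicroRNA-seq was made from 2 single midbrains. The authors deposited raw counts per gene and strand, 1 table per library, made on assembly mm10 with GENCODE M4 per the deposited descriptions. For aligner and counter, a name is not given in the sources used here. The 4 rows naming no gene (56.7% of reads in pup 3, 57.2% in pup 1) were left out of library sizes and tests. Own-strand counts were used. A symbol in GENCODE M21 was found for 1894 of 1973 genes. The limit set by a count of 0 is 3 counts, equal to 0.939 CPM for pup 3 and 1.28 CPM for pup 1. Ratios used TMM and a prior count of 0.5 in edgeR 4.0.16. The code was tried on simulated counts with counting noise only. That trial cannot show how the test behaves with the spread between pups seen here. Sequences were compared with Biopython 1.88. Named genes are the members, the nearest 2 above and below in level, microRNAs of the same host or within 50 kb, and listed families and genes. Members and lists were chosen with earlier results of these data known. Alternatives were strand, scaling (DESeq2 1.42.0 size factors among them), count minimum, prior count and each pup alone.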

Additional observations from a re-analysis of the deposited data

How the results depend on the processing

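Of 51 alternatives over 10 results, 40 were counted as unchanged, by rules that differed between results. Levels and the share of Mir135b had to stay within the SD between the pups. With so few pups, either pup alone always lies within that SD of the mean, so leaving 1 out could not fail this rule. The log2 ratios had to keep only their sign and call. Neither they nor the number of genes called were compared with the spread between the pups. The log2 ratio of Mir135b was -0.02, and on plain library totals it was 0.028 (adjusted p from 0.020 to 0.37 over the alternatives, edgeR), because the pups' TMM factors differ (1.02 and 0.983). That of Mir135a-1 stayed between -0.29 and -0.24 (adjusted p from 5.9e-05 to 0.0012) and that of Mir135a-2 between -0.13 and -0.08 (0.070 to 0.33). Other denominators rescale the levels by construction. Per 1000000 of all reads they were 5844 for Mir135b, 143 for Mir135a-1 and 163 for Mir135a-2. Without Mir99a in the total they were 16222, 397 and 453 CPM, and either-strand counts gave 13129 CPM for Mir135b. With 1 pup left out, Mir135b ranged from 13448 to 13711 CPM, Mir135a-1 from 305 to 360 CPM and Mir135a-2 from 368 to 389 CPM. With either pup left out, Mir135b ranked 15 and held 94.7% to 95.3% of the family's counts. The median share over the other families was 81.7% to 81.8%. A mean count of at least 50 left 286 genes tested and 5 called in place of 10. No paired analysis was possible because there is only 1 group. How many reads of the Mir135a copies were lost to several places is not in the files, and more depth would not recover them.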
